A study of Mus musculus with 4 samples.

Results

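The 3′ side of the HoxA cluster on mouse chromosome 6, from Hoxa2 to Hoxa7, was examined for open chromatin in posterior forelimb buds with and without Sonic hedgehog (SHH). Its 6 genes, Hoxa2, Hoxa3, Hoxa4, Hoxa5, Hoxa6 and Hoxa7, were taken with 5 kb on either side of each gene body (GENCODE M21), 6 of 21938 protein-coding genes in all. These bodies and flanks joined into a single window of 69.4 kb (mm10, chr6:52157417-52226854), which reached into Hoxa9 at its far end. The window held 33 peaks in 4 peak lists. Merging of overlapping peaks (1 bp or more) gave 19 of the 44692 accessible regions of the whole series. The regions are numbered 1 to 19 from the Hoxa2 side to the Hoxa7 side.

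The assay was ATAC-seq, where the Tn5 transposase tags DNA that is not packed in nucleosomes. There were 2 wild-type (WT) embryos and 2 embryos without SHH (Shh-/-), each at E10.5 (35 somites) and with a Swiss Webster background. For each library 5000 cells were used, from the posterior part of both forelimb buds of 1 embryo. The libraries labelled replicates 1 and 2 are written WT-1 and WT-2 for wild type, and Shh-1 and Shh-2 for Shh-/-. The Shh-/- embryos carry a null allele of Shh and lack the ligand in every tissue and from the start of development, so the Shh-/- libraries show a limb bud that has never been exposed to SHH.

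Hox genes encode homeodomain transcription factors that give body segments their identity along the head-to-tail axis. They lie in clusters in which the order of the genes matches the order of their expression domains, with 3′ genes expressed earlier and closer to the head than 5′ genes. In the HoxA cluster the 5′ genes from Hoxa9 to Hoxa13 pattern the limb along its length, while the 3′ genes are best known from the hindbrain, the pharyngeal arches, the neck and the thorax. Antisense noncoding RNAs, among them Hotairm1, Hoxaas2 and Hoxaas3, are interspersed with the genes. All 6 genes are transcribed from the minus strand, so that Hoxa2 has the lowest coordinates. The body of Hoxa3 (chr6:52169062-52213336) spans those of Hoxa4, Hoxa5 and Hoxa6, since its annotated transcript starts between Hoxa6 and Hoxa7, and a peak inside these 3 genes therefore counts for Hoxa3 as well.

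Sequences around 3 summits are given here, because they belong to the region with the best ranks (region 18), the region called in both WT and neither Shh-/- library (region 8) and a region whose summit window matched the CTCF core motif (region 5). All are read on the plus strand of GRCm38, 5′ to 3′, and capitals mark the motif match. The positions given here are those of the sequences shown and not the edges of the regions, which are given below. The sequence for region 5 (chr6:52170818-52171017) surrounds a summit in an intron of Hoxa3. That for region 8 (chr6:52190902-52191101) surrounds a summit in the intron of Hoxa4. That for region 18 (chr6:52221855-52221951) starts at the first base upstream of the longest Hoxa7 transcript, with the transcribed part left out.
Region 5: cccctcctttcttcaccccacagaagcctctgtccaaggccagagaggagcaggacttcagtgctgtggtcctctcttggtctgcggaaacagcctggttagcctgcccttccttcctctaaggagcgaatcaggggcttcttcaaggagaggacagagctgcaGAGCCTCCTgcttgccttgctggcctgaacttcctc
Region 8: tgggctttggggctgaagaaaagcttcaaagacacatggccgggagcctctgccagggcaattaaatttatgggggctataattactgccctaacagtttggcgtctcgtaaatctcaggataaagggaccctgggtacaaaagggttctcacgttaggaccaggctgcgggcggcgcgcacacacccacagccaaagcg
Region 18: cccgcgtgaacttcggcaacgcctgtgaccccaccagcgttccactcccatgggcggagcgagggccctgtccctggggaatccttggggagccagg

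The lists were of unequal length, and this touches each value below. The list of WT-1 held 39080 peaks, that of WT-2 11973, that of Shh-1 5589 and that of Shh-2 18459. WT-1 and Shh-2 are called the longer lists here. Over all protein-coding genes, 60.4% of promoters had a peak in WT-1, 39.2% in WT-2, 17.3% in Shh-1 and 51.3% in Shh-2. Beside these shares the following counts of chosen genes are small and serve as a description, not as evidence of cell identity. Of 6 genes of limb mesenchyme, 6 had a promoter peak in WT-1, 3 in WT-2, 2 in Shh-1 and 3 in Shh-2. The promoter of Prrx1 was called in all 4 libraries, while those of Tbx5, a forelimb gene, and Hand2, a posterior gene, were called in WT-1 alone. Of the 10 promoters chosen for the hindlimb, ectoderm, endothelium, muscle progenitors and blood, 5 were called in WT-1, 5 in Shh-2 and 0 in WT-2 and Shh-1. The hindlimb gene Tbx4 was called in both WT-1 and Shh-2, as were Krt18 (ectoderm), Kdr (endothelium) and Pax3 (muscle progenitors). The hindlimb gene Pitx1 was called in WT-1 alone and Epcam (ectoderm) in Shh-2 alone. Cdh5 (endothelium), Myod1 (muscle progenitors) and the blood genes Gata1 and Ptprc were called in none of the libraries. The exons of Shh had 0 peaks in every library, so that the peaks do not show the mutant allele.

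Peaks were called within 5 kb of all 6 genes, in numbers that varied more between libraries of a genotype than between genotypes. The window held 17 peaks of WT-1, 3 of WT-2, 3 of Shh-1 and 10 of Shh-2. The groups overlapped, since the value of WT-2 was equal to that of Shh-1. The mean was 10 ± 9.90 peaks in WT and 6.5 ± 4.95 in Shh-/- (SD, n = 2). The difference of 3.50 peaks was less than either SD (two-sided exact permutation test, p = 1, where 2 libraries against 2 cannot go below 0.33). The peaks covered 17.0% of the window in WT-1, 1.61% in WT-2, 2.19% in Shh-1 and 10.51% in Shh-2. The mean covered share was 9.28 ± 10.9% in WT and 6.35 ± 5.88% in Shh-/- (SD, n = 2), a difference that was also less than either SD (two-sided exact permutation test, p = 1). Without WT-1 the difference in peaks turned to -3.50, without WT-2 it was that of 17 and 6.5, without Shh-1 it was 0 and without Shh-2 it was 7.

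**Figure D1:**
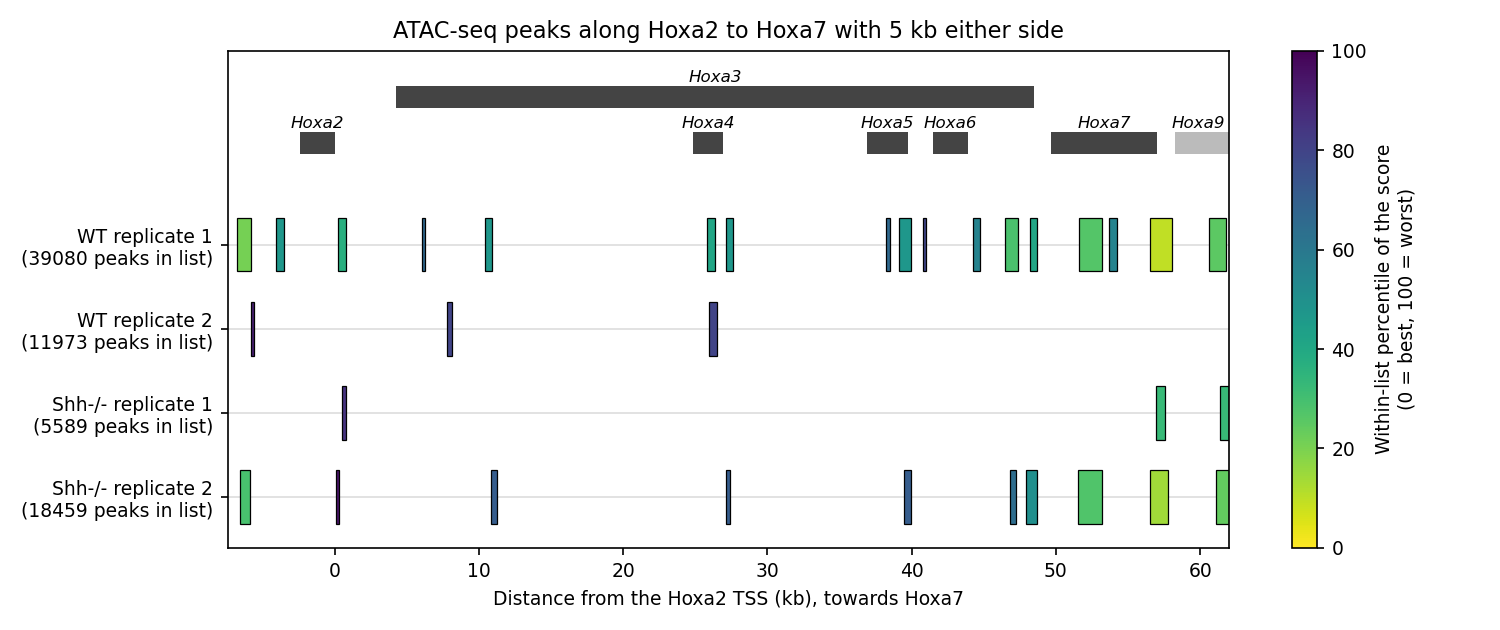
Peaks of the 4 libraries along the window, drawn to scale as distance in kb from the TSS of Hoxa2, with gene bodies above (the 6 genes dark, Hoxa9 light) and the colour giving the percentile of the peak within its own list (0 is the best score). Peaks are dense around Hoxa5 to Hoxa7 in the longer lists, and the 3 peaks of WT-2 coincide with none of the 3 of Shh-1.

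The number of peaks per 10000 of the list put the libraries in another order. It was 4.35 in WT-1, 2.51 in WT-2, 5.37 in Shh-1 and 5.42 in Shh-2. By this measure both Shh-/- libraries were above both WT libraries. When only the best 5589 peaks of every list were kept, as many as the shortest list has, 1 peak of the window remained in WT-1, 0 in WT-2, 3 in Shh-1 and 4 in Shh-2. The difference then turned to -3 peaks and the groups did not overlap, which gives the smallest p that 4 libraries allow (two-sided exact permutation test, p = 0.33). How often other windows of the genome show either separation of the groups was not examined, so both are descriptions of this window. Region 18 was the peak that remained in WT-1, and it remained in both Shh-/- libraries. Region 19 remained in both Shh-/- libraries, region 4 in Shh-1 and regions 1 and 16 in Shh-2. With a score of at least 50, 8, 0, 2 and 6 peaks remained in the same order of libraries, and the groups had the same mean of 4.

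**Figure D2:**
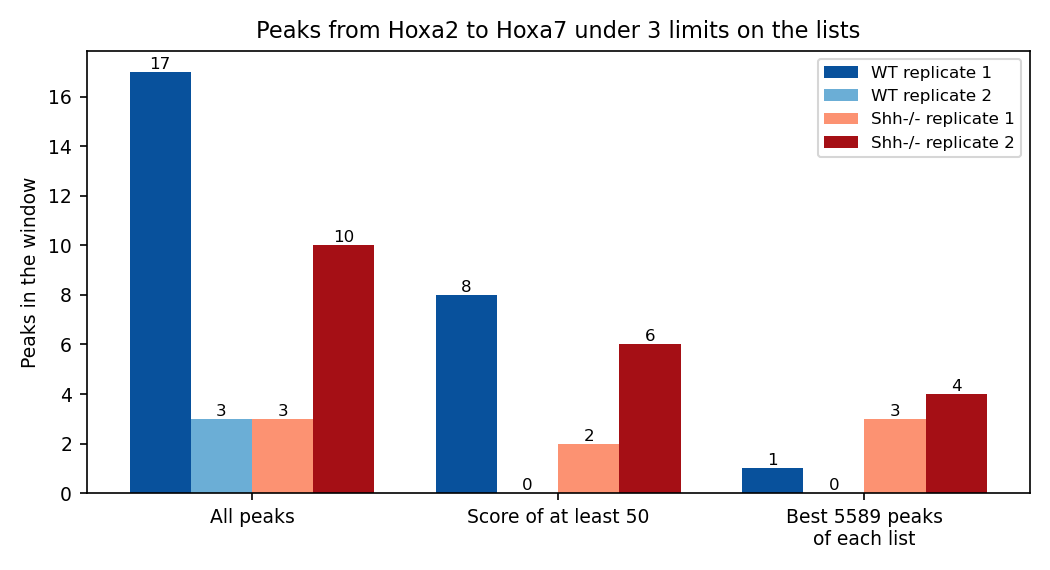
Number of peaks in the window in each library (bars), for all peaks, for peaks with a score of at least 50 and for the best 5589 peaks of each list. The WT libraries hold 17 and 3 peaks in the full lists and 1 and 0 among the best 5589, where the Shh-/- libraries hold 3 and 4.

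Sharing between libraries was examined next. Of the 19 regions, 0 were called in all 4 libraries, compared with 7.97% of all regions of the series. A single region, region 8 at Hoxa4, was called only in both WT libraries (2.09% of all regions), and 0 were called only in both Shh-/- libraries (0.396% of all regions). Regions 4, 18 and 19 were called in 3 libraries (13.6% of all regions), in each case in every library but WT-2 (2.26% of all regions). In region 4 the peaks of Shh-1 and Shh-2 shared no base with each other and were joined by the WT-1 peak. Another 7 regions were called only in the longer lists (11% of all regions) and 6 in WT-1 alone (51.6% of all regions). The remaining regions 2 and 6 were called in WT-2 alone (4.28% of all regions). In total 11 of 19 regions (57.9%) were called in more than 1 library, compared with 35.8% of all regions.

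The regions that both longer lists called give a common reference for the shorter lists. There were 10 in the window, of which WT-2 called 0 and Shh-1 called 3. Of all 14539 such regions of the series, WT-2 called 59.1% and Shh-1 called 31.5%. Among the 10632 regions whose mean percentile in the longer lists was within the range of the 10, these shares were 53.8% and 21.4%. The 10632 regions still ranked better, with a median mean percentile of 34.5 compared with 46.4 for the 10, so the sets are not matched by rank. WT-2 also called 77.9% of the 4574 regions of the series that the 3 other libraries shared, but none of regions 4, 18 and 19. The window was thus thinly called in WT-2, a library with more than 2 times the peaks of Shh-1. Whether this lies in the embryo or in the library was not tested.

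At Hoxa2, which specifies the second pharyngeal arch and hindbrain segments, the gene body (chr6:52162417-52164831) had 0 peaks in every library, and the calls lay on both sides of it. With its flanks the gene had 3 peaks in WT-1, 1 in WT-2, 1 in Shh-1 and 2 in Shh-2. Region 4 (chr6:52164916-52165639) lay just upstream of the TSS, in an intron of the readthrough gene model Gm28308, and its summits were 382 bp upstream in WT-1, 543 bp in Shh-1 and 221 bp in Shh-2. The peaks of Shh-1 and Shh-2 did not overlap and belong to the same region only through that of WT-1. Region 4 was weak in both Shh-/- libraries. The percentile of its score, where 0 is the best and 100 the worst peak of a list, was 37.0 in WT-1, 85.4 in Shh-1 and 94.8 in Shh-2. Region 1, at the far end of the downstream flank, was stronger, at a percentile of 21.1 in WT-1 and 29.2 in Shh-2, with summits 21 bp apart. Region 2, in an intron of the antisense RNA Hotairm1, was called in WT-2 alone and stood near the bottom of its list at a percentile of 91.1. Region 3, also at Hotairm1, was called in WT-1 alone.

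Hoxa3, which acts in the third pharyngeal arch and the organs that arise from it, had 12 peaks with its flanks in WT-1, 2 in WT-2, 1 in Shh-1 and 7 in Shh-2. Its annotated TSS lay in region 15 (chr6:52212771-52213520), where the antisense Hoxaas3 overlaps. Region 15 was called in WT-1 at a percentile of 41.4 and in Shh-2 at 50.7, the latter with a summit 91 bp upstream of the TSS. Region 14 (chr6:52211279-52212190), in an intron, was at 28.8 and 64.7 in the same libraries. Around the coding exons at the other end of the gene, region 5 (chr6:52170875-52171075) was called in WT-1 alone, and region 6 (chr6:52172589-52172955) in WT-2 alone. Region 7 (chr6:52175222-52176094) was called in both longer lists, at 47.2 and 71.1, but with summits 539 bp apart, the farthest of the 10 regions they shared. Between region 7 and Hoxa4 lay the longest stretch without a peak in any library, of 14.6 kb.

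Hoxa4, which acts in the cervical vertebrae, had 2 peaks in WT-1, 1 in WT-2, 0 in Shh-1 and 1 in Shh-2. The 2 peaks of WT-1 lay on either side of the TSS. Region 9 (chr6:52191924-52192423) was upstream, with summits 316 bp from the TSS in WT-1 and 326 bp in Shh-2, the shortest summit distance of the 10 shared regions. Region 8 (chr6:52190673-52191311) was downstream, in the intron and the exon next to it. It was called in WT-1 at a score of 53 (percentile 41.4) and in WT-2 at a score of 26 (percentile 79.9), and its summits lay 751 and 544 bp downstream of the TSS. This was the region called only in WT, and its peak in WT-2 was weak. The region was lost with a score of at least 50, which the WT-1 peak alone passed, at equal list size and when only summits within 200 bp were merged. A stretch of 10.6 kb without peaks separated Hoxa4 from Hoxa5.

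Hoxa5, required for the airway and lung and for vertebrae at the junction of neck and thorax, had 4 peaks in WT-1 and 1 in Shh-2, and 0 in the 2 other libraries. Region 11 (chr6:52203976-52204800) spanned its TSS. The summit was 143 bp upstream in WT-1 and 205 bp downstream, in the 5′ UTR, in Shh-2, and the percentiles were 47.2 and 71.1. Regions 10 and 12, in the intron of Hoxa5 and upstream of it, were called in WT-1 alone, at percentiles of 66.3 and 79.5. Hoxa6, its neighbour, also had 0 peaks in its own body (chr6:52206288-52208722) in all 4 libraries. With its flanks it had 6 peaks in WT-1 and 3 in Shh-2, and 0 in the 2 other libraries. Region 13 (chr6:52209077-52209538), 597 bp upstream of the TSS, was the only peak in its promoter window and was called in WT-1 alone, at 55.3. The other peaks in the flanks of Hoxa6 were those of Hoxa3 and Hoxa5 described above.

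**Figure D3:**
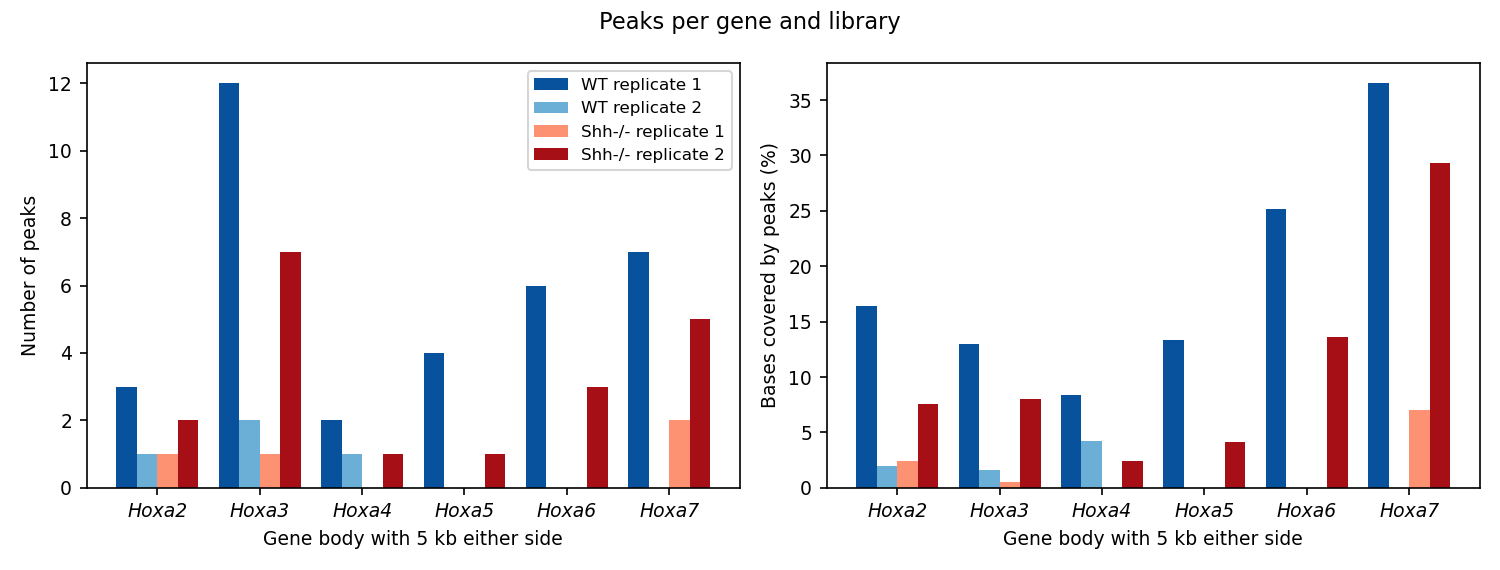
Number of peaks (left) and share of bases covered by peaks (right) for each gene body with 5 kb either side, 1 bar per library. Flanks overlap and Hoxa3 spans Hoxa4 to Hoxa6, so a peak can count for several genes. Hoxa7 has the largest covered share in WT-1, Shh-1 and Shh-2, and 0 in WT-2.

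Hoxa7, which patterns thoracic vertebrae, had the strongest peaks of the window in every library but WT-2. With its flanks it had 7 peaks in WT-1, 0 in WT-2, 2 in Shh-1 and 5 in Shh-2. They covered 36.5%, 0%, 7.03% and 29.4% of the gene with its flanks. Of these peaks, 3 in WT-1, 0 in WT-2, 1 in Shh-1 and 2 in Shh-2 overlapped the gene body. The others were those of region 19, at Hoxa9, and in the longer lists peaks at Hoxa3 or Hoxa6 described above. Region 18 (chr6:52221338-52222889) had the best mean percentile of the 19 regions. It ranked 3785 of 39080 in WT-1 (percentile 9.69), 1824 of 5589 in Shh-1 (32.6) and 2630 of 18459 in Shh-2 (14.2). Its summits lay 2 bp downstream, 123 bp upstream and 96 bp downstream of the TSS of the longest Hoxa7 transcript, which is part of the comprehensive annotation only and begins 3143 bp before the most upstream TSS of the basic set. Region 16 (chr6:52216338-52218049) covered 2 of the 3 TSSs of Hoxa7 in the basic set in a peak of 1643 bp in WT-1 and 1697 bp in Shh-2, at percentiles of 26.9 and 27.4. Region 17, 126 bp upstream of the TSS in the basic set, was called in WT-1 alone, at 55.3.

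The 5 kb beyond Hoxa7 held region 19 (chr6:52225477-52226951), whose summits lay in a UTR of Hoxa9, a gene of the posterior group with a role in the proximal limb. It was called in WT-1 (percentile 25.1), Shh-1 (32.6) and Shh-2 (24.1). This was the only region of the 10 shared by the longer lists that had the better percentile in Shh-2. A percentile is relative to the length of its list, and the list of WT-1 is the longer of the 2. By rank alone, only regions 4 (14442 in WT-1, 17491.5 in Shh-2) and 14 (11262 and 11934) were better in WT-1. In Shh-1, regions 18 and 19 had the same score of 109. WT-2 had 0 peaks from the intron of Hoxa4 to the end of the window, where the other 3 libraries had their best percentiles.

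Within-list ranks were compared along the window. The median percentile of the peaks was 47.2 in WT-1, 79.9 in WT-2, 32.6 in Shh-1 and 57.7 in Shh-2, and the group means of 63.5 ± 23.1 in WT and 45.2 ± 17.7 in Shh-/- (SD, n = 2) differed by 18.4, less than the SD in WT (two-sided exact permutation test, p = 0.667). A percentile depends on how far down a list reaches, so these values describe each library on its own. Over the 10 regions of the longer lists the percentiles in both libraries were ordered alike (Spearman's rho = 0.814 across regions, n = 10). These regions share their libraries and lie side by side, and the value is a description. Regions 18, 19, 1 and 16 had the 4 best percentiles in both lists. The median distance between the summits of both libraries was 169 bp, with a range of 10 to 539 bp, and 7 of 10 were within 200 bp. In WT-1 the 10 shared regions had percentiles from 9.69 to 47.2 with a median of 32.9, whereas the 6 regions it alone called had percentiles from 47.2 to 79.5 with a median of 60.8. The unshared peaks were also narrower, with a median width of 348 bp compared with 863 bp.

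**Figure D4:**
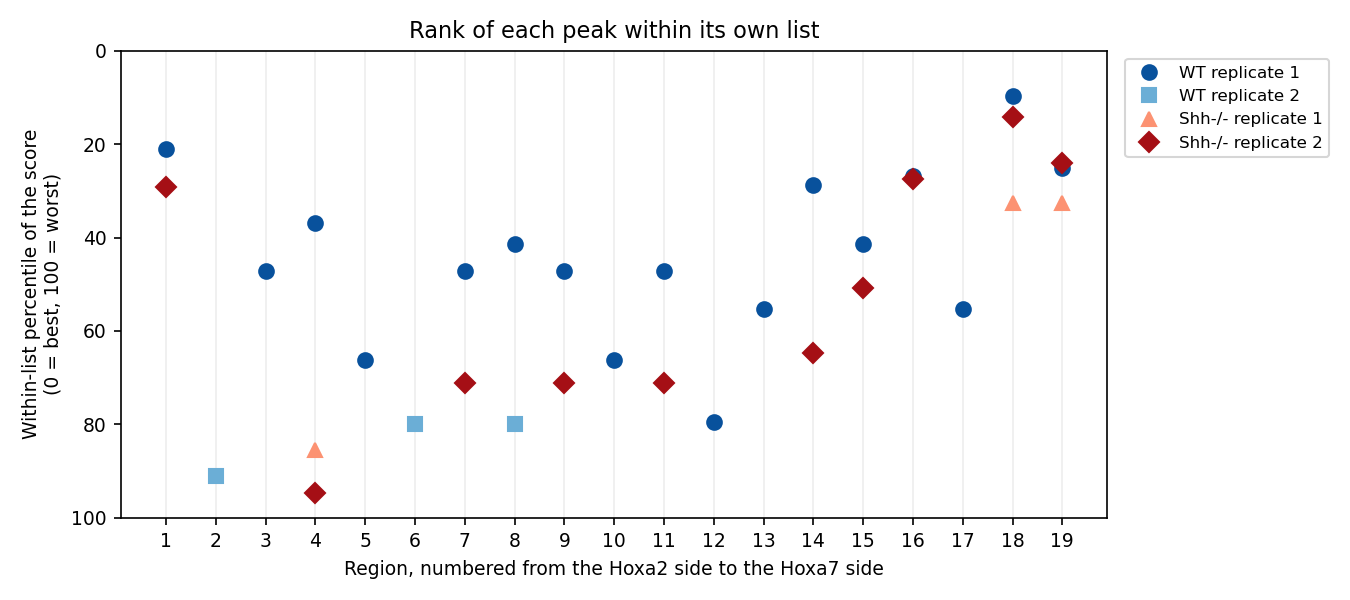
Percentile of each peak within its own list (vertical axis, 0 at the top is the best score) for regions 1 to 19 in order along the cluster, with a symbol for each library. The percentiles of WT-1 and Shh-2 are best at both ends, at region 1 and at regions 16, 18 and 19.

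Promoters, from 2 kb before to 1 kb after a TSS of the basic annotation, were called at 6 of the 6 genes in WT-1 (60.4% of all protein-coding promoters), at 1 in WT-2 (39.2%), at 1 in Shh-1 (17.3%) and at 5 in Shh-2 (51.3%). The single promoter was that of Hoxa4 in WT-2 and that of Hoxa2 in Shh-1, and the promoter missing in Shh-2 was that of Hoxa6. The mean was 3.50 ± 3.54 promoters in WT and 3 ± 2.83 in Shh-/- (SD, n = 2; two-sided exact permutation test, p = 1). None of the 6 promoters was called in all 4 libraries, compared with 16.1% of all protein-coding promoters. Hoxa2 and Hoxa4 were called in 3 libraries (22.1% of all protein-coding promoters), Hoxa3, Hoxa5 and Hoxa7 in 2 (13.6%) and Hoxa6 in 1 (10.4%). Of all protein-coding promoters, 37.9% were called in no library. Of 11 genes of the same paralogue groups in the other Hox clusters, 9 promoters were called in WT-1, 4 in WT-2, 2 in Shh-1 and 7 in Shh-2. Hoxc5 was the one paralogue whose promoter was called in all 4.

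The window was then compared with the posterior HoxA genes (Hoxa9, Hoxa10, Hoxa11 and Hoxa13 with 5 kb either side, less the bases shared with the window) and with Hoxb2 to Hoxb7, the counterparts of these genes on chromosome 11. The posterior HoxA window was covered to 10.6% in WT-1, 0% in WT-2, 0% in Shh-1 and 7.11% in Shh-2. The 3′ window exceeded it in 4 of 4 libraries, by 6.40, 1.61, 2.19 and 3.40 percentage points in the same order (mean 3.40 ± 2.14, SD, n = 4). The exact sign-flip permutation test (two-sided) gave p = 0.13, the smallest value that 4 libraries allow. With flanks of 2 kb, where region 19 counts for the posterior window, the mean difference was -0.277 percentage points (exact sign-flip permutation test, p = 0.875). Hoxb2 to Hoxb7 were covered to 9.89%, 2.06%, 0.344% and 3.60%. The HoxA window was higher in 3 of 4 libraries and lower in WT-2, with a difference of -0.455 percentage points (mean difference 3.84 ± 3.76, SD, n = 4; exact sign-flip permutation test, two-sided, p = 0.25). Both windows had 17 peaks in WT-1 and 3 in WT-2. Shh-2 had 10 peaks in the HoxA window and 6 in the HoxB window. Both longer lists shared 3 regions that reached into the posterior HoxA window, of which WT-2 called 0 and Shh-1 called 1. The region called by Shh-1 was region 19, which is counted in the 3′ window as well. Its merged edge crosses the border, while the Shh-1 peak itself ends before the posterior window. In the HoxB window the longer lists shared 3 regions, of which WT-2 called 2 and Shh-1 called 0.

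**Figure D5:**
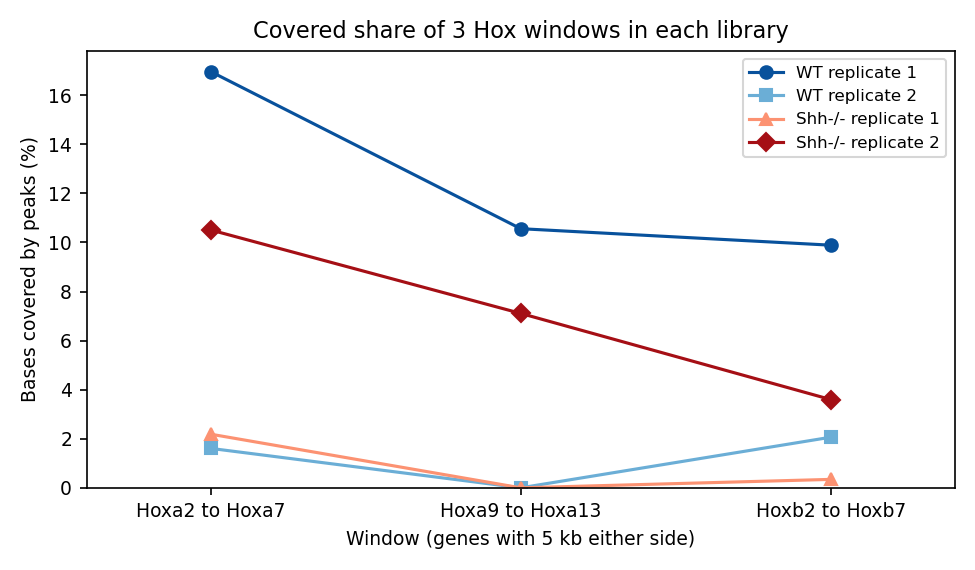
Share of bases covered by peaks (%) in the window from Hoxa2 to Hoxa7, in the posterior HoxA window and in the window from Hoxb2 to Hoxb7, with a line per library. All 4 lines fall from the first window to the second, and those of WT-2 and Shh-1 rise from 0% in the second to 2.06% and 0.344% in the third.

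Sequence around the summits (200 bp, best ranked peak of each region) had a median GC content of 56% over the 19 regions, with a range of 45 to 67%, compared with 55.5% over all regions and 62% over those called in all 4 libraries. The median number of CpG dinucleotides was 9 per 200 bp, compared with 4 over all regions and 15 over those called in all 4. Of the 19 regions, 11 had this summit within 1 kb of a TSS of a protein-coding gene in the basic set. Region 18 is not among them, since the TSS at its summit is in the comprehensive set only. The window was drawn around genes and no share over all regions stands beside this count, so it is a description. The GLI consensus TGGGTGGTC, looked for on either strand and allowing 1 mismatch, matched in 0 of 19 regions (5.62% of all regions). The CTCF core AGGNGGCNC matched exactly in 2 of 19 regions (6.46% of all regions), of which region 5, with its match on the minus strand, is shown above. The PBX-HOX motif TGATTNAT matched exactly in region 19 (1.99% of all regions), within the UTR of Hoxa9, and DR5, the repeat of AGGTCA at a spacing of 5 bases bound by retinoic acid receptors, matched with at most 1 mismatch in none (0.237% of all regions). The matches did not overlap each other.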

How the data were processed

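The authors made 1 ATAC-seq library per embryo with 18 cycles of PCR, sequenced paired ends and ran MACS2 on each library (200 bp window, 0.05 as the q-value limit). The submitters' processing notes name Bowtie2 2.2.5, MACS2 2.1.0 and mm10 (GRCm38). Read filters and any shift for the Tn5 cut are not given in the sources used here. The deposited score of each peak has a scale that is not given in the sources used here, and was used for ranks within a list and, as an alternative, for a minimum of 50 applied to every list, which may not be equally strict in each. The summit is the other column used. The remaining signal columns were 0 throughout. The lists hold no read counts, so the depth of each library cannot be read from them (the study's methods state a single depth for the assay, not one per library), the limma test of the study could not be made, and a missing peak means not called rather than closed.

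Peaks were read in Python 3.11.15 (pandas 2.3.3). Peaks with tied scores had their mean rank, and a percentile is the rank divided by the length of the list. Equal list size kept the 5589 best peaks of each list, with ties ordered by position. A library counted as calling a region when any of its peaks was merged into it. Gene bodies came from the comprehensive set of GENCODE M21 and TSSs from its basic set, and sequence from GRCm38.p6 (RefSeq). All 6 genes are described, with each gene that a peak of the window overlaps as far as it bears on a result, and sequences were shown for the region with the best mean percentile, regions called in both libraries of 1 genotype only and regions with a motif match (region 19 lay in a UTR, and the sequence and position of region 1 are not reported here), leaving out annotated UTRs. Libraries were grouped by the genotype in their titles. With 2 libraries against 2 an exact permutation test cannot go below p = 0.33, so no difference between genotypes can pass 0.05. Its p-value is the share of relabellings of these libraries that give a difference at least as large. Each embryo is 1 library, so differences between embryos cannot be told apart from those between libraries. Region and window counting was tested on simulated lists. The members, lists and tests were chosen with earlier results of these data known.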

Additional observations from a re-analysis of the deposited data

How the results depend on the processing

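The sign of the difference between genotypes depended on the list length. WT minus Shh-/- peaks in the window, 3.50 in the full lists, was 0 with a score of at least 50 and -3 at equal list size. The covered share went from 2.94 to -3.35 percentage points and the number of promoters from 0.50 to -1 at equal list size. Leaving out single libraries gave -3.50 (without WT-1) to 11 peaks (17 less 6.5, rounded, without WT-2), -4.74 to 10.6 percentage points and -2 to 3 promoters for the same libraries, and without Shh-1 the values were 0 peaks, -1.22 percentage points and -1.50 promoters. Further alternatives were added after seeing the data. With TSSs of the comprehensive set the promoters differed by 0. Between the longer lists at a matched length of 18459 peaks WT had 8 and Shh-/- 10 (-2), where 4 peaks of WT-1 with a score of 45 fell just outside, in a tie of 2620 peaks. Between the shorter lists at 5589 peaks WT had 0 and Shh-/- 3 (-3). The higher median percentile in WT, which means worse ranks there, kept its direction in each alternative run, from 0.0958 with flanks of 2 kb to 34.7 without WT-1. Without WT-2 the difference was 2.06. It was not computed with a score of at least 50 or at equal list size, where WT-2 had 0 peaks.

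The region called only in WT became 0 with a score of at least 50, at equal list size and with merging on summits, 1 to 7 with single libraries left out (7 without WT-2, 3 without WT-1) and 7 between the longer lists alone. Regions called only in Shh-/- became 1 at equal list size (region 19, which WT-1 calls in its full list) and 0 to 2 with single libraries left out. The shares of all regions given above are those of the full lists and were not taken for the alternatives. Regions called in every library became 0 to 3 with single libraries left out, 3 without WT-2, and 10 between the longer lists. The excess over posterior HoxA turned to -0.277 percentage points with flanks of 2 kb and was 1.42 with gene bodies of the basic set. The excess over Hoxb2 to Hoxb7 kept its sign in all alternatives, at 2.62 to 5.28. With a replicate block (sign flips within replicate numbers) the difference of 3.50 peaks had p = 1 (exact permutation test), and it changed no other call. The labels give replicates only a number, and deviations of same-numbered libraries from their group means correlated at 0.245 over all regions with 2 pairs, so the numbers were not taken to pair the samples. No permutation test here can pass 0.05, so their p-values say nothing about stability, and without the depth of each library a missing call cannot be told from a lack of reads.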
